A study of Mus musculus with 23 samples.

Results

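The Yap, Tead and Vgll branch of the Hippo pathway was followed through muscle differentiation as 10 genes, taken by their symbols from the 32793 genes of the deposited tables: the coactivators Yap1 and Wwtr1 (Taz), the DNA-binding factors Tead1, Tead2, Tead3 and Tead4, the cofactors Vgll2 and Vgll3, and the target genes Ankrd1 and Amotl2. All 10 passed the filter on low counts that left 14187 genes for testing, and the lowest count of any of them in any library was 34 (Vgll2). The cells were C2C12, an established mouse myoblast line whose cells divide in rich serum and, once serum is reduced, join into multinucleate myotubes. Poly(A) RNA was sequenced from control cells (WT) and from cells labelled Runx1KO (here labelled KO), lines meant to carry or lack the transcription factor Runx1. Each was sampled at day 0 in growth medium with 20% FBS and at days 1, 3 and 6 of culture in 2% horse serum, which induces differentiation, with 3 libraries in every group except WT at day 0, which had 2. The titles give the last time as day 6 while the series text gives 5 days, and the titles were followed. How the knockout was made, and whether the labelled KO cells were 1 clone or a pool, is not given in the sources used here. Nor do the labels say that replicates came from separate cultures, so p-values measure the spread between these libraries, which may be technical.

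In Hippo signalling, the kinases Stk3 and Stk4 with the adaptor Sav1 activate the kinases Lats1 and Lats2, which with Mob1 phosphorylate Yap and Taz and keep them out of the nucleus. Unphosphorylated Yap and Taz bind Tead factors at MCAT elements and raise the transcription of genes such as Ctgf, Cyr61, Ankrd1 and Amotl2. Vgll proteins bind the same surface of Tead and can take the place of Yap and Taz there. In muscle, MCAT elements lie in many contractile genes, Yap is known for sustaining myoblast proliferation, Tead4 is a target of MyoD, and Vgll2 is enriched in skeletal muscle. The pathway acts largely through phosphorylation and protein location, neither of which these data measure.

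Promoter sequence is shown first for 3 members: Ankrd1 and Amotl2, the target genes, whose windows hold both the letters that Tead factors and those that Runx factors are known to prefer, and Vgll3, whose level ran closest to that of Amotl2 among the members. The window searched was the 250 bases before a RefSeq transcript start in assembly GRCm38.p6, read 5′ to 3′ on the gene's strand. For Ankrd1 and Vgll3 that start is the first base of the RefSeq gene. For Amotl2 it lies inside the gene, 713 bases after its first base, so the Amotl2 window precedes an internal start. GENCODE M21 places transcripts over all 250 bases of the Ankrd1 and Amotl2 windows, with untranslated exon over 250 and 136 of them, and over 0 bases of the Vgll3 window. The Vgll3 window (chr16:65814939-65815188, plus strand) is therefore printed whole, and the other windows as stretches of 30 bases around the matches. Capitals mark the MCAT core CATTCC, or GGAATG where it lies on the other strand, and the Runx core TGTGGT, or ACCACA. They do not overlap.
Ankrd1, chr19:36120045-36120074 on the minus strand: gcggTGTGGTcactgccaaaGGAATGaccc
Ankrd1, chr19:36119950-36119979 on the minus strand: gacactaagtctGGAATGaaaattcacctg
Amotl2, chr9:102717686-102717715 on the plus strand: tgagaggttattTGTGGTtcgctttgatcc
Amotl2, chr9:102717727-102717756 on the plus strand: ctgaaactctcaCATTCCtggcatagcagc
Vgll3: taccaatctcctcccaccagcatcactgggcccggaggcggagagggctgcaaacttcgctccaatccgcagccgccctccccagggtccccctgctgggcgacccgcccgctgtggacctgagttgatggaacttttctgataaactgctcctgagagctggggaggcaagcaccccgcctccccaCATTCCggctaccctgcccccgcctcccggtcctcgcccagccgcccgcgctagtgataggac
The Ankrd1 window holds the MCAT core at 2 places, from -210 and from -123 relative to the start, and the Runx core from -226. In the Amotl2 window the MCAT core begins at -65 and the Runx core at -106, and in the Vgll3 window the MCAT core begins at -63. RefSeq windows were matched for 8 of the 10 members, all but Tead1 and Tead4. The MCAT core was found for 6 of the 8 (Yap1, Wwtr1, Tead3, Vgll3, Ankrd1 and Amotl2), against 14.4% of the 27025 genes with such windows, and the Runx core for 2 of the 8, against 15.9%. A match of 6 letters describes the sequence and does not show that a factor binds there.

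Library depth was even, from 22197606 to 23684077 estimated counts. Runx1 RNA was not lower under the KO label and was higher in the labelled KO libraries on every day. At day 0 it was at 118 to 122 CPM (counts scaled by library size and composition, the scale of every test) against 84.0 in both WT libraries. At day 6 it was at 297 to 320 against 146 to 165. The log2 fold changes were 0.51 and 1.02 (edgeR adjusted p = 0.000362 and 6.11e-10). Whether the knockout removed any exons is not given in the sources used here, so this RNA level cannot check the label. The groups are called by their labels throughout. Of 8 myogenic markers, the summed level went from 935 to 948 TPM (the authors' values per transcript length) in WT at day 0 to 2818 to 3221 at day 6, and from 1257 to 1295 to 11600 to 13130 in the labelled KO libraries. Markers of adipocytes, osteoblasts, endothelial cells and leukocytes (3 of each) stayed at or below 1.88 TPM, with Adipoq at 0 in every library. Some libraries stood apart. Replicate 2 of labelled KO at day 1 deviated from its group along GC content across genes (r = -0.63, against 0.44 and 0.43 in its 2 fellow replicates), and replicate 1 of labelled KO at day 3 had a myogenic sum of 7438 TPM against 4666 and 4843. At day 6, WT replicates 2 and 3 deviated along GC content (r = 0.21 and -0.22, with replicate 1 at 0). Each library was set against the mean of its fellows, so the r values within a group are tied. Their opposite signs are therefore not separate observations. Counts of WT day 6 replicate 3 differed more from its fellows (chi-square per degree of freedom 19.6 and 28) than those of any other library except the day 1 one (61.7 and 62.1). In these bulk samples, fewer cells of a type and less RNA per cell cannot be told apart.

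Yap1 and Wwtr1, the coactivators, moved in opposite directions during differentiation: Wwtr1 rose in both genotypes and Yap1 fell slightly. In TPM, the scale on which genes can be compared, Yap1 lay between 41.4 and 65.3 in all 23 libraries. Wwtr1 moved from 42.8 and 48.4 TPM in WT at day 0 to 72.1 to 76.3 at day 1, and from 40.0 to 45.0 to 61.6 to 77.0 in the labelled KO libraries. No day 0 library reached any later one of its genotype. The rise by day 6 was 1.53-fold in WT (log2 fold change 0.61 ± 0.08 SE, edgeR adjusted p = 4.89e-07) and 1.69-fold in labelled KO (0.75 ± 0.07, adjusted p = 1.55e-09). From day 0 to day 6 Yap1 fell by 0.29 ± 0.07 on the log2 scale in labelled KO (adjusted p = 0.00123) and by 0.21 ± 0.08 in WT (adjusted p = 0.0308). The WT call was lost in 11 of the alternatives, among them each omission of WT day 0 replicate 1 or 2 or of WT day 6 replicate 1 or 2 (-0.14 to -0.24). With limma on log2(TPM + 1) the change was -0.03 in WT and -0.18 in labelled KO, and neither passed. In WT the mean of Wwtr1 went from 45.6 to 79.4 TPM and that of Yap1 from 50.3 to 49.7. By share of their summed TPM, Yap1 moved from 52.5% ± 0.7 (SD, n = 2) to 38.4% ± 0.7 (n = 3) in WT, and from 56.5% ± 1.9 (n = 3) to 38.6% ± 1.0 (n = 3) in labelled KO.

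Between genotypes, Wwtr1 passed the test on no day. Yap1 passed at day 1, at 139, 152 and 146 CPM in labelled KO against 122, 120 and 127 in WT. The groups did not overlap there, and the difference was 1.19-fold (log2 fold change 0.25 ± 0.07, edgeR adjusted p = 0.00969). Without the day 1 library that stood apart it was 0.19 (adjusted p = 0.0452), and without WT day 1 replicate 2 it was 0.22 (adjusted p = 0.0541). It was also lost with limma on TPM (0.20 and 0.21, adjusted p = 0.134 and 0.133) and when only the groups compared were fitted (0.22, adjusted p = 0.095). At day 0 Yap1 missed the threshold (0.19 ± 0.08, adjusted p = 0.128) and passed when only the groups compared were fitted (adjusted p = 0.0213). Without the labelled KO library that stood apart, Wwtr1 at day 1 reached -0.18 (adjusted p = 0.0359).

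**Figure D1:**
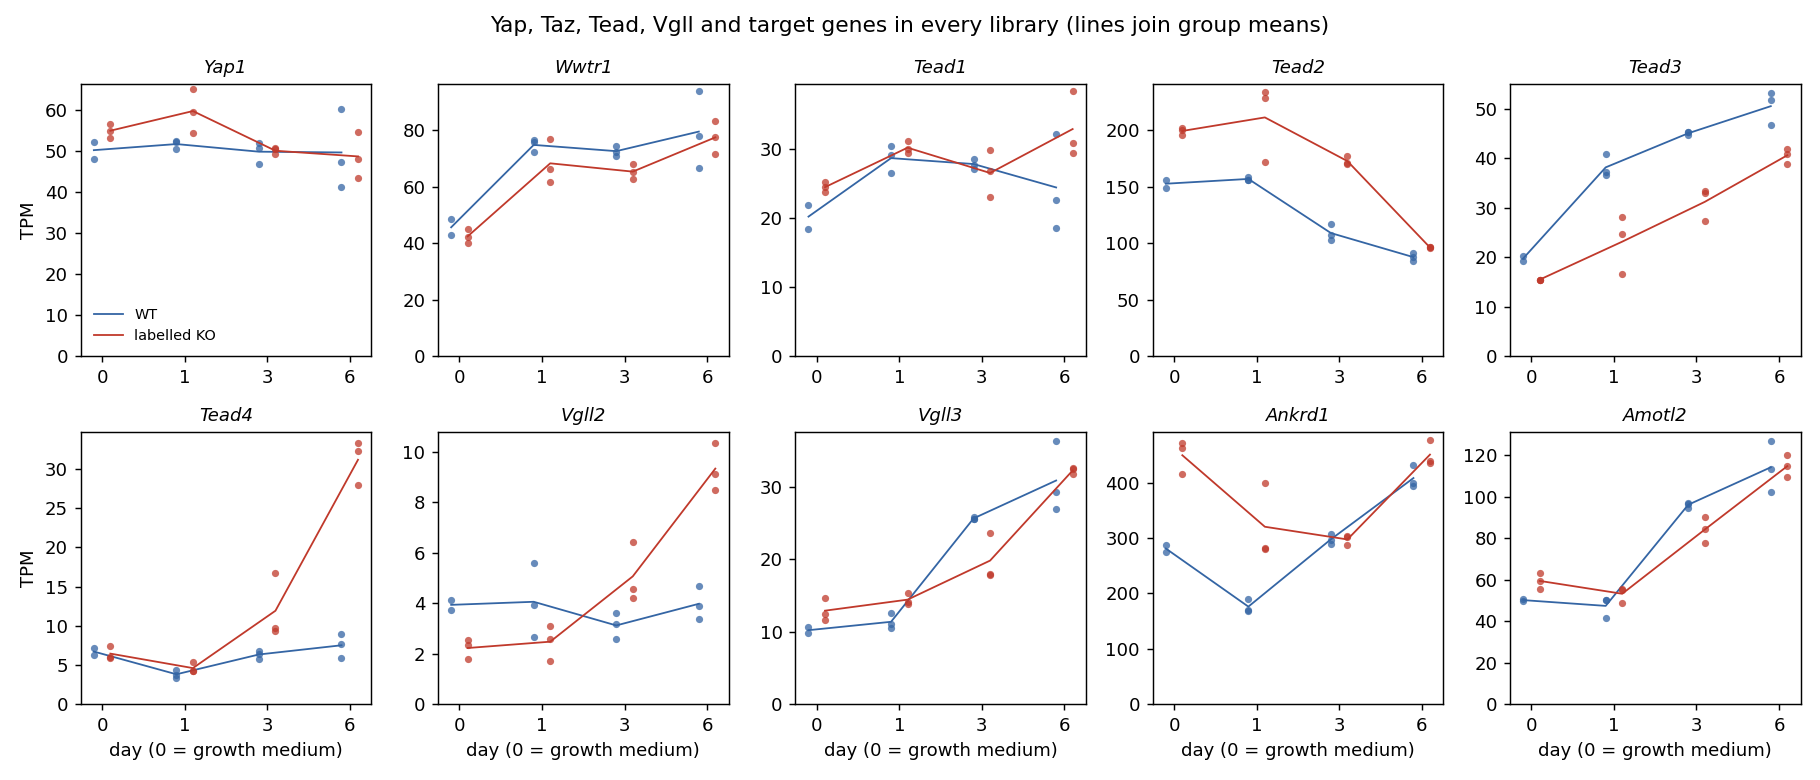
TPM (vertical axis, from 0) of the 10 genes in each library at days 0, 1, 3 and 6 (horizontal axis, evenly spaced), with WT in blue and labelled KO in red; points are libraries and lines join group means. Tead4 reaches 28.0 to 33.3 TPM in the labelled KO libraries at day 6 and no more than 8.93 in any WT library, while Yap1 changes little.

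The makeup of the Tead family turned over during differentiation in both genotypes, and Tead4 separated them. Tead2 was the most abundant Tead message in every library and fell, Tead3 rose, and Tead4, the least abundant at day 0, rose late in the labelled KO libraries. Tead2 made up 76.6% ± 1.6 (SD, n = 2) of summed Tead TPM in WT at day 0 and 51.6% ± 2.3 (n = 3) at day 6, and 81.1% ± 0.3 (n = 3) and 47.9% ± 2.0 (n = 3) in labelled KO. Over the same time Tead3 went from 9.91% to 29.8% in WT and from 6.30% to 20.2% in labelled KO. Tead4 went from 3.38% to 4.41% in WT and from 2.63% to 15.5% in labelled KO. The summed Tead level was higher in every labelled KO library than in any WT library on day 0 (241 to 250 against 197 to 201 TPM), day 3 (230 to 256 against 183 to 195) and day 6 (193 to 209 against 161 to 185), while at day 1 they overlapped. The overlap came from the library that stood apart (224 TPM, against 286 and 297 in its fellows and 223 to 234 in WT).

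**Figure D2:**
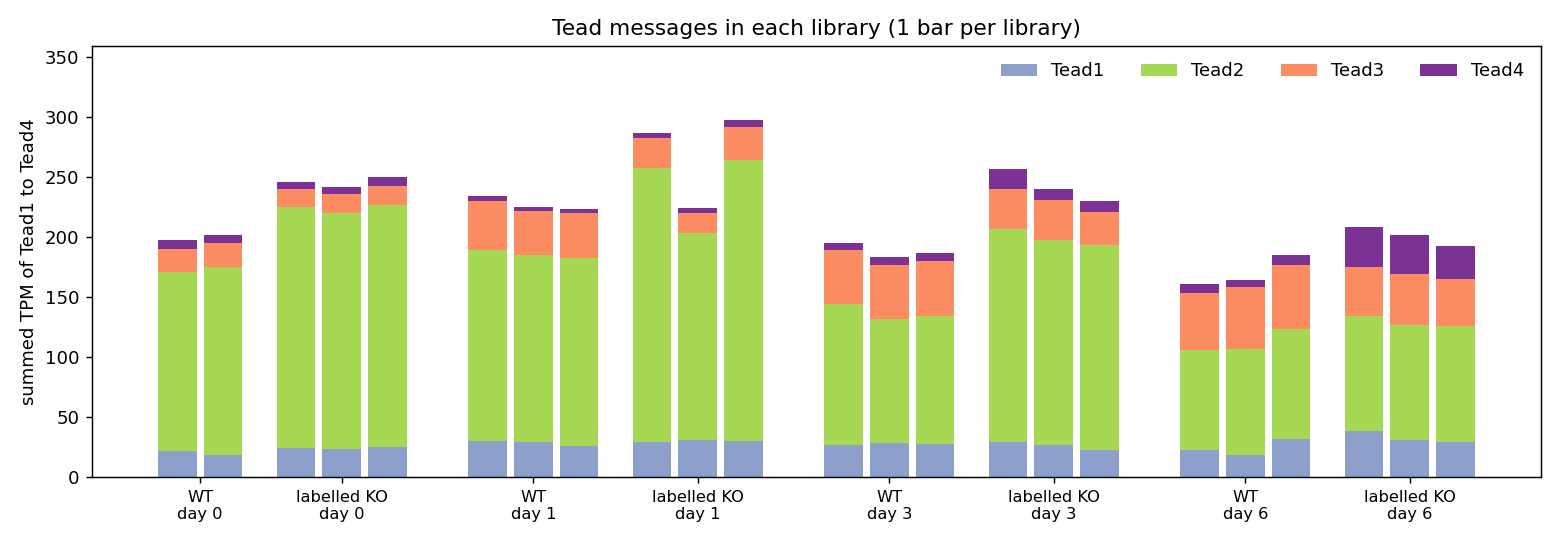
Summed TPM of Tead1 to Tead4 (vertical axis, from 0), with 1 stacked bar per library grouped by label and day and 1 colour per gene. Tead2 fills most of each bar at day 0 and about as much as the other 3 together at day 6, and the Tead4 share, 1.68% and 1.72% in WT and labelled KO at day 1, reaches 4.41% and 15.5% at day 6.

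Tead4 (chr6:128227143-128300813) encodes the Tead factor placed downstream of MyoD. In WT its level was 12.8 and 11.9 CPM at day 0, then 7.10, 5.68 and 6.24 at day 1, 9.49, 10.2 and 11.3 at day 3 and 12.6, 10.3 and 13.1 at day 6. In the labelled KO libraries it was 11.0, 11.6 and 14.2 CPM at day 0, 7.62, 6.82 and 9.40 at day 1, 29.9, 17.3 and 17.1 at day 3 and 55.6, 58.0 and 51.2 at day 6. Both genotypes dipped at day 1, and WT came back near its starting level by day 6. Every labelled KO library at days 3 and 6 lay above every WT library. The dip from day 0 was 1.94-fold in WT (log2 fold change -0.96 ± 0.20, edgeR adjusted p = 0.000274) and 1.55-fold in labelled KO (-0.63 ± 0.18, adjusted p = 0.00494, and -0.52 without the library that stood apart). The labelled KO dip lost its call with limma on log2(TPM + 1) (-0.41, adjusted p = 0.0522). From day 1 to day 3 Tead4 rose 1.63-fold in WT (0.71 ± 0.18, adjusted p = 0.00773) and 2.70-fold in labelled KO (1.43 ± 0.17, adjusted p = 9.76e-07, and 1.31 and 1.12 without the day 1 and the day 3 library that stood apart). By day 6, labelled KO stood 4.47-fold above its own day 0 (2.16 ± 0.17, adjusted p = 5.49e-11) and 4.57-fold above WT (2.19 ± 0.17, adjusted p = 1.88e-10). At day 3 it was 2.08-fold above WT (1.05 ± 0.17, adjusted p = 2.2e-05), and 0.74 on the log2 scale (adjusted p = 0.000165) without replicate 1. That replicate was also the highest for the myogenic markers, whose sum at day 6 was 11600 to 13130 TPM in labelled KO against 2818 to 3221 in WT. The part of that difference in the Tead4 result was not tested.

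Tead2 encodes the Tead factor known from early development and proliferating cells. Its values were 183 and 203 CPM in WT at day 0, 180, 179 and 184 at day 1, 133, 116 and 121 at day 3 and 96.1, 106 and 92.8 at day 6. In the labelled KO libraries they were 260, 263 and 267 CPM at day 0, 283, 195 and 279 at day 1, 219, 210 and 217 at day 3 and 111, 120 and 122 at day 6. The groups did not overlap on any day. The difference was 1.36-fold at day 0, 1.39-fold at day 1, 1.75-fold at day 3 and 1.20-fold at day 6 (log2 fold change 0.45 ± 0.11, 0.48 ± 0.10, 0.81 ± 0.10 and 0.26 ± 0.10, with edgeR adjusted p = 0.00619, 0.000431, 5.93e-07 and 0.0376). The low value at day 1 was the library that stood apart, and without it the log2 difference there was 0.61, and without labelled KO replicate 1 that at day 3 was 0.80. The day 0 call was lost without WT replicate 1 (0.39, adjusted p = 0.086). The day 6 call was lost without labelled KO replicate 2 or 3 or WT replicate 1 or 3 (0.19 to 0.25), with library size alone (0.19) and with limma on TPM (0.13 and 0.14). In time, Tead2 fell by 0.98 ± 0.11 on the log2 scale from day 0 to day 6 in WT (adjusted p = 5.05e-08) and by 1.16 ± 0.10 in labelled KO (adjusted p = 4e-10). Most of the WT fall came before day 3 (-0.65 ± 0.11, adjusted p = 2.13e-05), while most of the labelled KO fall came after it (-0.87 ± 0.10 from day 3 to day 6, adjusted p = 2.22e-07), although the day 3 difference between genotypes, measured from day 0, did not pass (0.36 ± 0.15, adjusted p = 0.128).

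Tead3, a Tead factor found in many tissues, was lower in labelled KO at days 1 and 3. Its level was 30.3 and 32.9 CPM in WT at day 0, 59.2, 54.3 and 56.7 at day 1, 65.0, 65.5 and 66.5 at day 3 and 69.7, 80.5 and 70.0 at day 6. The labelled KO libraries held 25.3, 26.2 and 25.8 CPM at day 0, 39.4, 24.0 and 42.6 at day 1, 52.1, 52.5 and 44.1 at day 3 and 61.5, 67.5 and 64.0 at day 6. Each labelled KO library was below each WT library of its day, and both genotypes climbed. By day 6 the rise was 2.32-fold in WT (log2 fold change 1.22 ± 0.15, edgeR adjusted p = 1.82e-07) and 2.50-fold in labelled KO (1.32 ± 0.13, adjusted p = 4.5e-09). The genotype difference passed at day 1, at 1.61-fold lower (-0.69 ± 0.13, adjusted p = 0.000166, and -0.49 without the library that stood apart), and at day 3, at 1.32-fold lower (-0.41 ± 0.13, adjusted p = 0.0121). Without labelled KO replicate 3 the day 3 value was -0.33 (adjusted p = 0.0732), and without replicate 1 it was -0.44 (adjusted p = 0.0195). At days 0 and 6 the differences of -0.29 ± 0.15 and -0.19 ± 0.13 did not pass (adjusted p = 0.197 and 0.234). The day 0 value passed when only the groups compared were fitted (-0.29, adjusted p = 0.0146), and the day 6 value with limma on log2(TPM + 1) (-0.31, adjusted p = 0.0482).

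Tead1, the broadly expressed Tead factor of heart and muscle, passed the genotype test at day 6. There the labelled KO libraries held 220, 189 and 183 CPM and the WT libraries 126, 110 and 161. They did not overlap in CPM, though they did in TPM (29.4 to 38.5 against 18.6 to 32.1), and the difference was 1.49-fold (log2 fold change 0.58 ± 0.10, edgeR adjusted p = 9.55e-05). At days 1 and 3 the group means lay within 1.09-fold and 1.06-fold of each other, and at day 0 the difference of 0.34 ± 0.12 missed the threshold (adjusted p = 0.0516) although the groups did not overlap, and it passed with DESeq2 (0.35, adjusted p = 0.0274), RLE scaling (adjusted p = 0.0447), no filter (adjusted p = 0.0312) and only the groups compared (adjusted p = 0.00269).

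Vgll2, the cofactor enriched in skeletal muscle, was the member of lowest level in CPM, and it rose with time within labelled KO. Its counts in CPM were 3.78 and 3.61 in WT at day 0, 3.31, 2.25 and 4.91 at day 1, 3.00, 2.60 and 2.17 at day 3 and 3.27, 3.02 and 3.52 at day 6. In labelled KO they were 1.77, 2.52 and 2.27 at day 0, 2.39, 1.42 and 2.73 at day 1, 5.93, 3.84 and 4.35 at day 3 and 7.37, 8.47 and 9.80 at day 6. The labelled KO libraries were below WT at day 0 (-0.76 ± 0.28, edgeR adjusted p = 0.07, and 0.0225 to 0.0462 in the 5 alternatives in which it passed), overlapped WT at day 1 and were above it at days 3 and 6. Vgll2 (chr10:52022502-52028471) was 1.82-fold higher at day 3 (log2 fold change 0.86 ± 0.25, edgeR adjusted p = 0.00668) and 2.61-fold higher at day 6 (1.39 ± 0.23, adjusted p = 3.69e-05). The day 3 call was lost without labelled KO replicate 1, the one with the high myogenic sum (0.66, adjusted p = 0.0541). At day 1 the difference was -0.68 ± 0.26 (adjusted p = 0.0353) and was lost without the library that stood apart (-0.47, adjusted p = 0.164) or without WT replicate 3 (-0.35, adjusted p = 0.302). Within labelled KO, Vgll2 rose 3.90-fold from day 0 to day 6 (1.97 ± 0.25, adjusted p = 1.83e-07), and in WT it passed at no step, except from day 0 to day 3 when only the groups compared were fitted (-0.50, adjusted p = 0.04).

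Vgll3, a cofactor of the same family, rose in both genotypes after day 1. It held 19.8 and 22.3 CPM in WT at day 0, 20.1 to 23.2 at day 1, 46.1 to 47.7 at day 3 and 52.9 to 59.8 at day 6. The labelled KO libraries held 24.6 to 31.6 CPM at day 0, 26.8 to 28.5 at day 1, 35.5 to 47.6 at day 3 and 59.6 to 66.6 at day 6. WT was lower at days 0 and 1 with no overlap, and the groups overlapped at days 3 and 6. From day 1 to day 3 the rise was 2.20-fold in WT (log2 fold change 1.14 ± 0.10, edgeR adjusted p = 2.01e-08) and 1.44-fold in labelled KO (0.53 ± 0.10, adjusted p = 0.000409, and 0.52 and 0.39 without the day 1 and the day 3 library that stood apart). From day 3 to day 6 labelled KO rose a further 1.59-fold (0.67 ± 0.10, adjusted p = 9.83e-06), while the WT change of 0.25 ± 0.10 did not pass (adjusted p = 0.13). Labelled KO exceeded WT by 1.32-fold at day 0 (0.40 ± 0.12, adjusted p = 0.0216) and by 1.31-fold at day 1 (0.39 ± 0.11, adjusted p = 0.0048, and 0.36 without the library that stood apart). The day 0 call was lost without labelled KO replicate 3 (0.29, adjusted p = 0.128) or WT replicate 1 (0.33, adjusted p = 0.233), and with limma on TPM (0.31 and 0.33). At day 3 Vgll3 reached the threshold in the other direction without labelled KO replicate 1 (-0.36, adjusted p = 0.00537) and, among others, with DESeq2 (-0.26, adjusted p = 0.0366), but not in the test used throughout (-0.22 ± 0.10, edgeR adjusted p = 0.0787).

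Of the target genes, Ankrd1, an ankyrin repeat protein of the sarcomere and nucleus, was the more abundant and showed the largest difference past the threshold among the members at days 0 and 1. In WT it was at 275 and 304 CPM at day 0, 157, 158 and 182 at day 1, 265, 279 and 273 at day 3 and 369, 387 and 355 at day 6. The labelled KO libraries were at 438, 503 and 508 CPM at day 0, 285, 366 and 270 at day 1, 289, 302 and 314 at day 3 and 410, 480 and 451 at day 6. Both genotypes dropped at day 1, WT was back near its start by day 3, and labelled KO stayed down until after day 3. In CPM the labelled KO libraries lay above WT on all 4 days without overlap, by 1.67-fold at day 0 (log2 fold change 0.74 ± 0.11, edgeR adjusted p = 2.53e-05), 1.86-fold at day 1 (0.89 ± 0.10, adjusted p = 1.37e-07, and 0.72 without the library that stood apart) and 1.21-fold at day 6 (0.27 ± 0.10, adjusted p = 0.0237). The day 3 difference of 0.15 ± 0.10 did not pass (adjusted p = 0.216), and in TPM the day 3 groups overlapped (287 to 303 against 289.5 to 308). The day 6 call was lost without labelled KO replicate 2 or 3 or WT replicate 1 or 3 (0.21 to 0.27), with library size alone (0.20) and with limma on TPM (0.14).

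Amotl2, an angiomotin family protein that binds and restrains Yap at junctions, rose in both genotypes after day 1. Its range was 130 to 134 CPM in WT at day 0, 102 to 121 at day 1, 222 to 229 at day 3 and 256 to 268 at day 6, and in labelled KO 151 to 173, 115 to 142, 207 to 232 and 287 to 296. The rise from day 1 to day 3 was 1.98-fold in WT (log2 fold change 0.98 ± 0.08, edgeR adjusted p = 3.31e-09) and 1.66-fold in labelled KO (0.73 ± 0.08, adjusted p = 2.28e-07, and 0.62 and 0.68 without the day 1 and the day 3 library that stood apart). Every day 3 library of either genotype lay above every day 1 library. Labelled KO was 1.24-fold higher at day 0 (0.30 ± 0.09, adjusted p = 0.0203) and 1.16-fold higher at day 1 (0.21 ± 0.08, adjusted p = 0.0361, with overlapping groups, and 0.28 without the library that stood apart). The first was lost without labelled KO replicate 2 or 3 or WT replicate 1 or 2 (0.26 to 0.33), with library size alone (0.24) and with limma on TPM (0.24), and the second without labelled KO replicate 1 or 3 or WT replicate 3 (0.14 to 0.18) and under 7 other settings, RLE scaling among them (0.19).

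**Figure D3:**
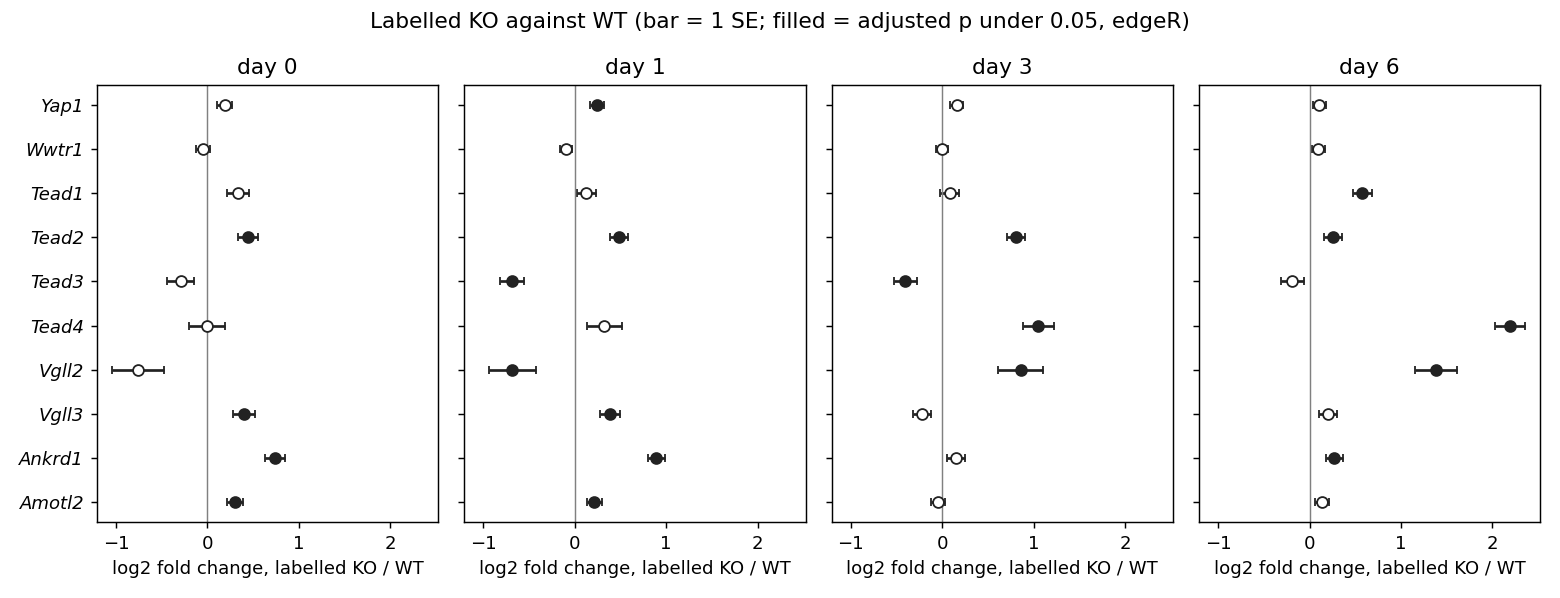
Log2 fold change of labelled KO over WT (horizontal axis) for the 10 genes (rows) on each of 4 days (panels); bars are 1 SE and filled points passed an edgeR adjusted p of 0.05. Tead4 moves from near 0 at day 0 to 2.19 at day 6, Vgll2 crosses from negative to positive, and Tead3 is below 0 on every day.

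Counted over the members, labelled KO was higher for 4 and lower for 0 of 10 at day 0, where 17.5% of all tested genes passed in either direction. For the count of 0, 1 member was lower at an unadjusted p under 0.05 by edgeR, and 0 by DESeq2 and by limma on log2(TPM + 1). That member, Vgll2, passed as lower in 5 alternatives, limma on log2(TPM + 0.1) among them (-0.81, adjusted p = 0.0457). In 1 of the 5, the fit of only the groups compared, Tead3 passed as lower too. At day 1 the count was 5 higher and 2 lower (background 42.2%), at day 3 it was 3 higher and 1 lower (43.2%), and at day 6 it was 5 higher and 0 lower (42.9%), with 0 lower at an unadjusted p or by DESeq2 and 1 lower, Tead3, by limma on log2(TPM + 1). The shares of members called, 4, 7, 4 and 5 of 10, were thus above the background at days 0 and 1 and near it at days 3 and 6. The members were chosen with earlier results of these data known, so these shares only describe them. The median member difference was 0.25, 0.23, 0.12 and 0.23 on the log2 scale, against -0.001, 0.03, 0.04 and 0.004 over all tested genes. The day 0 count ranged from 1 (without WT replicate 1) to 4 when libraries were left out, being 2 without labelled KO replicate 3, and the day 6 count fell to 3 without labelled KO replicate 2 or 3 or WT replicate 1 or 3.

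Over time, the share of members called lay near that of all genes for each WT day against day 0 and for labelled KO at day 1. From day 0, WT had 3 members higher and 3 lower at day 1 (background 54.7%), 5 and 1 at day 3 (58.2%) and 5 and 2 at day 6 (63.6%). Labelled KO had 2 higher and 3 lower at day 1 (52.3%), 6 and 3 at day 3 (57.6%) and 7 and 2 at day 6 (70.0%). These 6 comparisons share the day 0 libraries of their genotype. For WT at day 1, Amotl2 lost its lower call whichever WT day 0 or day 1 library was left out. Those omissions gave 4 to 5 members in all. In the last step, from day 3 to day 6, in WT 2 of 10 members passed (Ankrd1 higher, Tead2 lower, against 9.79% of all genes), and in labelled KO 9 of 10 passed (8 higher and Tead2 lower, against 41.3%). Without WT day 3 replicate 1 or 3 or WT day 6 replicate 1, 1 member passed in the WT step, while DESeq2 gave 3 and the fit of only the groups compared gave 4. Amotl2 passed there in 5 alternatives, DESeq2 among them (0.24, adjusted p = 0.0199), and Vgll3 in the fit of only the groups compared (0.26, adjusted p = 0.0479). Without WT day 6 replicate 3, Tead2 lost its call in the WT step (-0.275, edgeR adjusted p = 0.109). In the same fit Tead1 passed as lower (-0.37, adjusted p = 0.0131). The labelled KO count ran from 6 to 9. That step's difference between the genotypes was not tested. From day 1 to day 3, 5 members passed in WT (19.7%) and 5 in labelled KO (26.7%).

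Whether the genotypes moved differently from day 0 was tested as an interaction, the change in labelled KO minus the change in WT. At day 1 0 of 10 members passed in edgeR (background 3.95%), 0 at an unadjusted p under 0.05, and 0 by DESeq2 and limma. At day 3 there were 2 above and 2 below (10.7%), and at day 6 there were 2 above and 1 below (13.0%). By day 6 this difference was 2.20 ± 0.25 on the log2 scale for Tead4 (edgeR adjusted p = 1.32e-06) and 2.14 ± 0.37 for Vgll2 (adjusted p = 0.000225). For Ankrd1 it was -0.59 ± 0.14 at day 3 (adjusted p = 0.00857) and -0.46 ± 0.14 at day 6 (adjusted p = 0.0333). By day 3 its level in labelled KO had fallen by 0.68 from day 0, and the WT change of -0.09 did not pass. By day 6 WT had risen by 0.35, and the labelled KO change of -0.11 did not pass. Vgll3 rose less in labelled KO by day 3 (0.54 against 1.16, a difference of -0.62 ± 0.16, adjusted p = 0.0103). Amotl2 at day 3 missed the threshold (-0.35 ± 0.12, adjusted p = 0.067) and passed in 9 alternatives, DESeq2 among them (-0.40, adjusted p = 0.00913). Tead2 at day 3 passed when only the groups compared were fitted (0.32, adjusted p = 0.0152). Without labelled KO day 3 replicate 1 the day 3 values were 0.74 for Tead4, 1.42 for Vgll2, -0.76 for Vgll3 and -0.56 for Ankrd1, all past the threshold. Both time points share the 5 day 0 libraries. Without WT day 0 replicate 1, only Vgll2 passed at day 3 (1.53, adjusted p = 0.0348), while Tead4 (0.95, adjusted p = 0.0618), Vgll3 (-0.59, adjusted p = 0.0593) and Ankrd1 (-0.58, adjusted p = 0.0503) did not. At day 6 Ankrd1 lost its call in 7 omissions, of labelled KO day 0 replicate 2 or 3, WT day 0 replicate 1 or 2, labelled KO day 6 replicate 1 or 3 or WT day 6 replicate 2 (-0.43 to -0.54).

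The other targets of Yap and Taz were read from a list of 22 known genes, 20 of them outside the members. Labelled KO was higher for 7 and lower for 1 of the 20 at day 0, 4 and 3 at day 1, 1 and 8 at day 3 and 3 and 10 at day 6, where 17.5%, 42.2%, 43.2% and 42.9% of all tested genes passed in either direction. At days 1 and 3 the targets called, 7 and 9 of 20, were thus near or below that background in number. The median difference moved from 0.15 and 0.04 at days 0 and 1 to -0.20 and -0.23 at days 3 and 6. In the interaction, 0 targets were above and 9 below at day 3, and 0 above and 8 below at day 6, with medians of -0.40 and -0.37 against 0.05 and 0.02 for all tested genes, of which 943 were above and 576 below at day 3 and 1070 and 769 at day 6 (10.7% and 13.0%). For those counts of 0, edgeR gave 0 and 2 at an unadjusted p under 0.05, and DESeq2 and limma gave 0 on both days. Across the alternatives the number below ran from 6 (without WT day 0 replicate 2) to 13 at day 3 and from 7 to 10 at day 6. The single target higher at day 3, Ctgf, was lost without labelled KO day 3 replicate 1 or WT day 3 replicate 2 or 3, and by DESeq2 and limma. At day 0 the 7 higher fell to 4 without WT replicate 1.

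Ctgf, a matricellular protein and standard readout of Yap, gave the largest target difference. Its TPM was 34.6 and 38.3 in WT at day 0 against 151 to 251 in labelled KO, and 10.6 to 13.2 against 56.8 to 60.3 at day 1. By day 3 the groups met, at 33.0 to 40.9 against 35.1 to 55.9, and at day 6 they were 76.6 to 98.5 against 110 to 119. The log2 difference was 2.57 ± 0.18 at day 0 (edgeR adjusted p = 1.62e-10), 2.34 ± 0.16 at day 1 (adjusted p = 5.97e-11), 0.37 ± 0.15 at day 3 (adjusted p = 0.044) and 0.52 ± 0.14 at day 6 (adjusted p = 0.00485). Its interaction was -2.20 ± 0.22 at day 3 (adjusted p = 6.64e-07) and -2.05 ± 0.22 at day 6 (adjusted p = 5.53e-07). Cyr61, the other matricellular readout, started a little higher in labelled KO (292 to 347 against 254 to 255 TPM) and ended lower (297 to 329 against 456 to 474 TPM at day 6). Its difference went from 0.41 ± 0.10 at day 0 (adjusted p = 0.00512) to -0.82 ± 0.09 at day 3 (adjusted p = 9.24e-08), with an interaction of -1.22 ± 0.13 (adjusted p = 1.29e-06). Tgfb2, a growth factor, was 1.97-fold higher at day 0 (0.98 ± 0.09, adjusted p = 1.18e-08), while the group means at day 6 were 18.8 ± 1.8 in labelled KO and 22.2 ± 3.3 TPM in WT (SD, n = 3 each). F3, tissue factor, was 1.54-fold higher at day 0 (0.62 ± 0.12, adjusted p = 5e-04) and fell below WT at day 6 (-0.48 ± 0.11, adjusted p = 0.000653). Igfbp3, a binding protein of insulin-like growth factors, was lower in labelled KO on every day, from 4.83 to 6.47 against 16.7 and 18.9 TPM at day 0 (-1.59 ± 0.14, adjusted p = 5.74e-09) to 13.1 to 13.7 against 28.2 to 35.5 at day 6 (-1.11 ± 0.12, adjusted p = 3.39e-08). Dock5, an exchange factor for Rac, was lower at day 1 (-0.44 ± 0.11, adjusted p = 0.0018), day 3 (-0.95 ± 0.11, adjusted p = 2.13e-07) and day 6 (-0.75 ± 0.11, adjusted p = 5.87e-06). Nuak2, a kinase of the AMPK family, was higher at day 6, at 9.92 to 10.1 against 6.55 to 9.38 TPM (0.53 ± 0.14, adjusted p = 0.00295).

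Upstream of Yap, 25 of 26 kinases, adaptors, polarity genes, junction genes and other Vgll genes were tested (Vgll1 was listed at 0 in every library), of which Lats2, Ajuba and Ptpn14 also stand on the target list. Labelled KO was higher for 2 and lower for 1 at day 0, 7 and 3 at day 1, 3 and 11 at day 3 and 4 and 14 at day 6. Read against the same backgrounds of 17.5%, 42.2%, 43.2% and 42.9%, the 3 and 10 of 25 called at days 0 and 1 were not above the share of all genes. The median difference was 0.05, 0.08, -0.16 and -0.25. At day 0 the 2 higher became 0 without WT replicate 1 and 1 without WT replicate 2 or labelled KO replicate 3. At day 1 the 7 higher became 4 without the library that stood apart or without WT replicate 2, and the 3 lower became 1 without WT replicate 1. At day 6 the 4 higher became 0 without WT replicate 1, 2 without WT replicate 2 and 1 without labelled KO replicate 1, and the 14 lower became 9 without labelled KO replicate 3. Over all alternatives the number lower ran from 8 to 13 at day 3. Limma on log2(TPM + 1), under which the median of all genes shifted by -0.13 at day 3 and -0.10 at day 6, gave 1 higher at day 3 and 0 at day 6. It turned the day 1 balance to 2 higher and 5 lower, and called 0 in either direction at day 0. Fat4, a giant protocadherin that signals into the pathway, was the most reduced, at 0.23 to 0.53 TPM against 1.95 to 2.40 at day 3 (-2.36 ± 0.20, edgeR adjusted p = 1.42e-09) and 0.35 to 0.65 against 2.12 to 3.37 at day 6 (-2.28 ± 0.19, adjusted p = 9.94e-10). Its ligand Dchs1 was lower too, at 0.36 to 0.62 against 0.77 to 1.40 TPM at day 6 (-0.95 ± 0.20, adjusted p = 0.000429). The core kinases Lats1 and Lats2 were lower at day 6 (-0.36 ± 0.10 and -0.33 ± 0.09, adjusted p = 0.00761 and 0.00654), with overlapping groups for Lats1, which was higher at day 1 (0.33 ± 0.10, adjusted p = 0.0115). Limd1, a LIM protein that binds Lats kinases, was higher on all 4 days by 0.31 to 0.32 on the log2 scale, and Stk3, the kinase above Lats, was higher at days 0, 1 and 3 (0.29, 0.49 and 0.39). The day 0 calls of both and the day 6 call of Limd1 were lost without WT replicate 1 and by limma on log2(TPM + 1). In TPM the Limd1 groups overlapped at day 6 (20.0 to 24.7 in labelled KO against 17.2 to 24.6 in WT). Mob1b, a Mob1 partner of Lats, was higher at days 1 and 6 (0.62 ± 0.19 and 0.53 ± 0.19, adjusted p = 0.00975 and 0.0272), and Amotl1, an angiomotin, at day 6 (0.33 ± 0.09, adjusted p = 0.00509). In TPM the Mob1b groups overlapped on both days (5.18 to 8.44 in labelled KO against 3.39 to 5.36 in WT at day 1). The Amotl1 groups overlapped at day 6 (31.5 to 39.4 against 24.4 to 37.9). Vgll4, the cofactor that opposes Yap on Tead, was higher at day 3 (0.43 ± 0.12, adjusted p = 0.00457) and day 6 (0.30 ± 0.12, adjusted p = 0.0405, with overlapping groups).

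**Figure D4:**
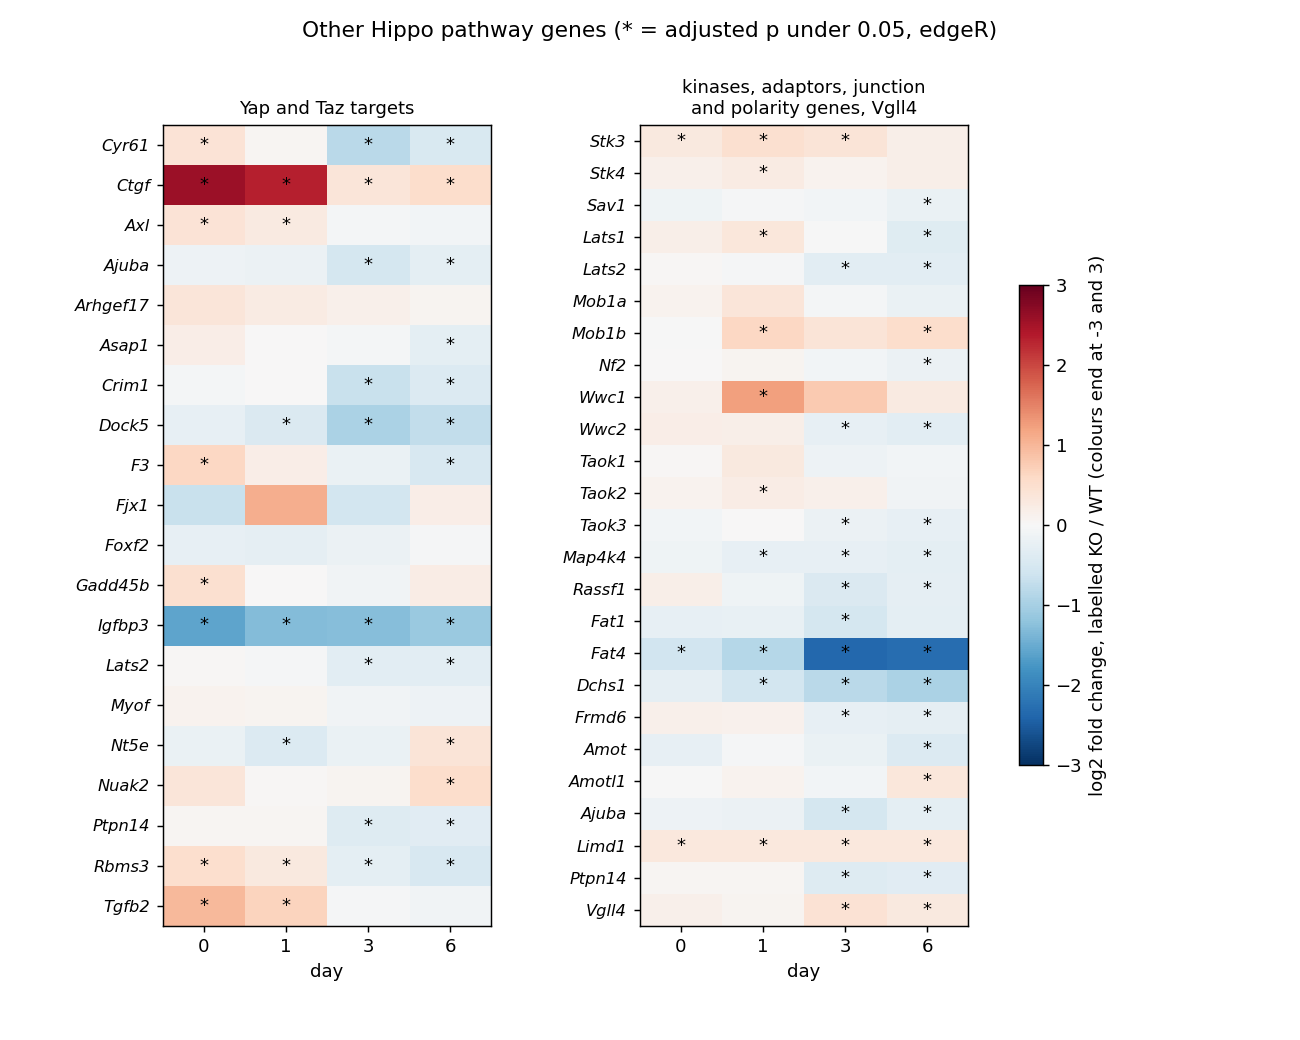
Log2 fold change of labelled KO over WT (colour, red higher and blue lower) for the 20 other targets (left) and 25 other pathway genes (right) on days 0, 1, 3 and 6; asterisks mark an edgeR adjusted p under 0.05. Ctgf is dark red at days 0 and 1 and pale at days 3 and 6, Fat4 darkens to blue at days 3 and 6, and blue asterisks outnumber red ones at those days in both panels.

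Muscle genes known for MCAT elements or ties to Tead gave larger median differences from day 1 on. Of 8 listed, 5 were also among the myogenic markers. Labelled KO was higher for 1, 4, 6 and 6 at days 0, 1, 3 and 6. Of all tested genes, 17.5%, 42.2%, 43.2% and 42.9% passed in either direction. The medians of the list were 0.43, 1.24, 1.27 and 2.74. The day 0 median rests partly on Myog, Ckm, Ankrd2 and Myh7, whose group means there were at most 0.16 TPM. The 1 gene lower at days 0, 1 and 6 was Myf5, an early myogenic factor (-1.43, -0.89 and -0.34 on the log2 scale). Ckm, muscle creatine kinase, stood at 526 to 570 TPM at day 6 in labelled KO against 32.2 to 36.8 in WT, and Myh7, a slow myosin heavy chain, at 1.41 to 1.80 against 0.10 to 0.30. Tnnt2, a troponin T, stood at 735 to 1082 TPM at day 3 in labelled KO against 242 to 263 in WT. None of these pairs of groups overlapped. Whether these genes moved through Tead4 or Vgll2 was not tested.

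Across the 23 libraries, which share genotype, day and scaling, some genes followed a member closely in log2 CPM. Slc12a2 (Pearson r = 0.98), Rap1gap2 (0.96) and Tmem158 (0.96) were most like Tead4, and Lgals9 (0.90), Fem1a (0.89) and Oas3 (0.88) were most like Vgll2. Plk2 (0.97), Ctgf (0.95) and Npr3 (0.90) were most like Ankrd1, so a target from the list ranked second of 10234 genes compared. Zfp180, Arhgap35 and Setd7 (0.94 each) were most like Yap1. Among the members themselves, Amotl2 and Vgll3 were the closest pair (r = 0.96), followed by Tead4 and Vgll2 (0.81), while Tead3 and Yap1 ran most opposite (-0.87).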

How the data were processed

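Poly(A) RNA-seq of C2C12 cells was measured in 23 libraries of 8 groups (label and day). The authors deposited estimated counts and TPM values per gene; Bowtie2, RSEM and build mm10 are named in the submitters' processing notes, while annotation and strand are not given in the sources used here. The deposited estimated counts are whole numbers in the file, and rounding changed none. The deposited TPM values, scaled per length and depth, served for levels between genes. Genes passing edgeR 4.0.16's filter (minimum count 10, minimum total 15; R 4.3.3) were scaled by TMM and fitted by quasi-likelihood over all 23 libraries in 1 model with 17 contrasts, with Benjamini-Hochberg adjustment over 14187 genes and a threshold of 0.05. The standard error is the log2 fold change over the root of F. CPM carries the TMM scaling, and correlations used log2 CPM with a prior count of 2. Alternatives were DESeq2 1.42.0, limma 3.58.1 on log2(TPM + 1) and log2(TPM + 0.1), RLE scaling or library size alone in place of TMM, no filter or a filter at a mean of 50 counts, a fit of only the groups compared, a replicate block, and each library left out. Every replicate pair differed by more than sampling noise (chi-square per degree of freedom of at least 3.13). The fitting was tested on simulated data.

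The members and lists were chosen with earlier results of these data known. All 10 members are named. The genes named from each list were chosen among the 2 largest and 2 smallest log2 fold changes past the threshold in a comparison, over genes of at least 5 CPM in a group, and for likeness the 3 highest Pearson r. Promoter windows and positions are RefSeq's on GRCm38.p6, matched by symbol. GENCODE M21 gave the transcripts over the windows shown.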

Additional observations from a re-analysis of the deposited data

Results flagged for a closer look

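The change from day 0 differed between the labelled KO and WT libraries for 4 members at day 3 and 3 at day 6, by the interaction term of the edgeR fit. The change in labelled KO minus that in WT, on the log2 scale, was 1.06 for Tead4 at day 3 and 2.20 at day 6. For Vgll2 it was 1.62 at day 3 and 2.14 at day 6. For Vgll3 it was -0.62 at day 3. Ankrd1 gave -0.59 at day 3 and -0.46 at day 6. Both days share the day 0 libraries, so these are not separate pieces of evidence.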

How the results depend on the processing

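Of 170 pairs of a member and a comparison, 90 passed the threshold, 59 of them under every alternative run. The other 31 were lost in at least 1, among them 27 when a library was left out, and no called value changed sign. Fitting only the groups compared moved the number of members called from 4 to 8 at day 0 and from 7 to 4 at day 1 (labelled KO against WT), from 2 to 4 for WT day 6 against day 3, and from 5 to 3 for labelled KO day 1 against day 0. Over all tested genes it moved 5981 calls to 3607 at day 1, 2797 to 4642 for WT day 3 against day 1, 3790 to 1659 for labelled KO day 3 against day 1, and the interaction from 560 to 239 at day 1 and from 1519 to 2613 at day 3. Limma on log2(TPM + 1) gave 2 members at day 0 and 3 for labelled KO day 1 against day 0; library size alone and limma on log2(TPM + 0.1) each gave 3 at day 6.

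Leaving out libraries gave 1 to 4 members at day 0, 3 to 5 at day 6, 1 to 2 for WT day 6 against day 3, and 1 to 5 for the interaction at day 3. Over all genes it gave 1265 to 2216 calls at day 0, 762 to 1579 for WT day 6 against day 3, and for the interaction 148 to 919, 829 to 1429 and 1184 to 1861 at days 1, 3 and 6. The cause of these moves was not tested.

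Same-numbered replicates did not deviate together (r of -0.24 to 0.116), so the numbers were not taken as pairs. With the replicate block, 1 member passed for WT day 6 against day 3, where Tead2 was lost (-0.32, edgeR adjusted p = 0.0519). Vgll2 passed at day 0 (-0.82, adjusted p = 0.0462). Amotl2 was lost for WT day 1 against day 0 (-0.22, adjusted p = 0.0607), a call lost in 13 alternatives. Limma on log2(TPM + 1) moved the higher share of labelled KO calls from 42.1% to 31.3%, 54.4% to 43.3%, 55.5% to 34.3% and 51.4% to 34.9% at days 0, 1, 3 and 6. Depth limits Vgll2 most, with a lowest count of 34.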
